A study of Saccharomyces cerevisiae with 279 samples.

Results

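The poorly ribosome-occupied mRNAs are 129 budding yeast transcripts, of 4868 nuclear protein-coding transcripts measured, whose mean ribosome occupancy over both 30°C lysates of the heat Polysome-seq experiment was under 0.65. Ribosome occupancy is the fraction of an mRNA's spike-in-scaled signal found in ribosome-bound rather than free gradient fractions. Each transcript also needed at least 100 estimated counts in both Total libraries. Under the occupancy threshold lay 133 transcripts. *HAC1*, the only one of 11 genes set aside by name that fell under it, and 3 transcripts of 5000 nt or more were left out, and 4739 measured transcripts serve as the others. All but 18 members, which are uncharacterized, are verified open reading frames. The members were selected on occupancy in those 2 lysates, so its low value there is a description. Every other lysate is independent of that choice, except that heat-shocked Polysome-seq lysates are compared with the same 2 controls. The last members inside the threshold were *PDR15* at 0.646, *BIT2* at 0.647 and *MRS4* at 0.65, and the first transcripts outside were *SWC7* at 0.651, *YRF1-8* at 0.651 and *GEP3* at 0.652. The 2 lysates of *MRS4* alone read 0.621 and 0.678, a wider gap than separates these 6 transcripts.

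The study sequenced 279 libraries from 91 lysates of *Saccharomyces cerevisiae*. In Sed-seq (77 lysates) RNA was sequenced from the Total lysate, the supernatant and the pellet after centrifugation with EDTA, which takes polysomes apart, and pSup is the proportion of an mRNA in the supernatant. In Polysome-seq (14 lysates) RNA was sequenced from Total lysate and from free and ribosome-bound sucrose gradient pools. Cells were the haploid laboratory strain BY4741 in synthetic complete dextrose medium unless stated. Groups were 30°C, 42°C and 46°C for 10 min, and at 30°C sodium azide at 0.5% or 0.8% at pH 6.8 for 30 min against mock, ethanol at 5%, 7.5%, 10% or 15% for 15 min against mock, and DTT at 10 mM for 15 min against mock. Cycloheximide, an inhibitor of elongation, was given at 100 μg/mL against mock at 30°C, 42°C and 46°C. Per the paper, cells had it for 10 min before heat shock. Strain yJB042 carried a degron on eIF3b and strain yHG038 one on eIF4E. The paper lists these degron strains as MATα and BY4741 as MATa. Both degron strains, mock cells included, carried a β-estradiol-inducible TIR1 ligase and grew in YPD. The depleted cells received β-estradiol and auxin while mock cells received the solvent. Loss of the factor therefore cannot be told apart from effects of these compounds or of the ligase. Auxin followed β-estradiol and was given for 2 h before the temperature treatment, so depletion ran longer than the stresses. Each group held 2 lysates, described as biological replicates, apart from cycloheximide and its mock at 42°C and 7 reporter strains, with 1 lysate each. The reporter strains carried a leader with no hairpin, one of 4 hairpins, or the *GCN4* leader intact or with its upstream reading frames mutated.

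Sed-seq Total libraries held 2222970 to 30761624 estimated counts and supernatant libraries 1392070 to 34578941. Total libraries of Polysome-seq held 9430520 to 28892474 and free libraries 2677525 to 20654966. As a check of the strain, the a-specific receptor gene *STE2* had a median of 185.1 TPM over the Total libraries, the α-specific pheromone gene *MF(ALPHA)1* 1.268 TPM, and the deleted markers *LEU2*, *URA3* and *MET17* 0 TPM. *HIS3*, also an auxotrophic marker of BY4741, had a median of 51.43 TPM. Depletion acts on the protein, so the target mRNA checks nothing. *PRT1*, which encodes eIF3b, read 139.2 and 139.9 TPM in mock and 162.3 and 152.5 TPM in depleted lysates. *CDC33*, which encodes eIF4E, read 670.2 and 662.7 TPM in mock and 497.7 and 479.4 TPM in depleted lysates.

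An mRNA is loaded with ribosomes when initiation factors bring the small subunit to its 5′ end and scanning finds the start codon. A long leader, structure, or upstream reading frames can hold this step back. An mRNA with rare initiation can lie in the free fraction or under a single ribosome. In the paper, however, an initiation-blocked hairpin reporter of unstressed cells lay in heavy gradient fractions, also with EDTA. eIF4E binds the cap and eIF3, of which eIF3b is a subunit, joins the small subunit to the mRNA. Untranslated mRNAs can gather with proteins into particles that sediment faster than single ribonucleoproteins.

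The poorly occupied mRNAs were of low abundance and had long annotated leaders. Their Total level at 30°C had a median of 12.2 TPM (quartiles 7.24 and 22.5), against 32.6 TPM (17 and 73.7) for the others. The annotated 5′ UTR in rich medium, known for 80 members, had a median of 207.5 nt against 81 nt for 4074 others, and it exceeded 300 nt in 31 of 80 members (38.8%) and in 12.4% of the others. Median open reading frame length was 1650 nt against 1329 nt. Of the members, 22 (17.1%) lay within 30000 nt of a chromosome end, against 3.36% of the others. These are descriptions of genes and carry no test. Across all 4868 transcripts abundance and occupancy were themselves related (Spearman's rho 0.53), while among the 129 members rho was 0.04. The points of that relation share 2 lysates.

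By annotation, 29 members (22.5%) encode mitochondrial proteins against 19.9% of the others, and 24 (18.6%) nuclear proteins against 29.7%. Genes of meiosis and sporulation made up 7 members (5.43%, against 2.32%): *SPO23*, *HFM1*, *IME2*, *ADY4*, *RED1*, *RIM9* and *NDJ1*. Transcription regulators made up 5 (*TOG1*, *SUT1*, *PHD1*, *GAL80* and *SSN8*) and the mating and cell cycle list 3. The transmembrane transport list held 2, and that of DNA replication and repair 1, the excision repair gene *RAD34*. The lists hold only genes to which the annotation gives a listed term directly, so they are partial. Transporter genes such as *FLR1*, *DUR3* and *ENB1* outnumber the transport list, and *SAE2* and *SLD7* are outside the repair list. No process was annotated for 27 members (20.9%, against 11.5%), and 46 members were in none of these lists.

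The lowest occupancy belonged to *ASP3-1* to *ASP3-4*, tandem copies of the nitrogen-regulated cell-wall asparaginase gene, with 0.308 and 0.270 in the 30°C lysates. The 4 copies held identical values because reads were split among them, so they amount to 1 uncertain measurement. Next were *YER186C*, an uncharacterized gene, with 0.322 and 0.347, and *COS111*, needed for resistance to the antifungal ciclopirox olamine, with 0.365 and 0.393. The helicase genes of the subtelomeric Y′ elements (*YRF1-4*, *YML133C*, *YJL225C*, *YHL049C*) and *THI21* and *THI22* also share reads with near-identical copies. By TPM, *CCW12*, which encodes an abundant cell-wall mannoprotein, stood far above the rest at 33935 TPM, with occupancy of 0.555 and 0.580. The next were all short reading frames, *MCO6* (686 TPM, a small mitochondrial protein), *YJL077W-B* (438 TPM), *ERI1* (270 TPM, a subunit in glycolipid anchor synthesis) and *COX19* (154 TPM, cytochrome oxidase assembly).

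The low rank of these mRNAs was seen again in mock cells of the other Polysome-seq experiments, while their absolute occupancy was higher there. The median member had 0.589 and 0.598 in the 30°C lysates that chose it, 0.660 and 0.679 in the azide mocks and 0.779 and 0.749 in the ethanol mocks, against 0.841, 0.855, 0.879, 0.855, 0.925 and 0.920 for the others. All 129 members lay below the others' median in each of the 4 mock lysates. In the 30°C lysates that chose the members this was fixed by the choice. The level of 0.65 itself was not kept: 59 and 49 members were under it in the azide mocks and 12 and 16 in the ethanol mocks. In a limma fit of log-odds of occupancy against the lysate median over these 4 mock lysates, every member tested, that is all but 5 of the 129, was lower, where 35.2% of the 5121 mRNAs tested were called lower. The member median was −1.22 ln units, and the range was −2.53 to −0.40. The 4 lysates were taken as separate units although the azide mocks are from 1 experiment and the ethanol mocks from another. The 5 members not tested had fewer than 100 estimated counts in at least 1 of the 4 Total libraries. *COS111* was the least stable of the lowest 6: its mock lysates read 0.766, 0.706, 0.813 and 0.773.

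The bound signal of poorly occupied mRNAs lay more under few ribosomes than that of the others. At 30°C the pool of monosomes and disomes held a median of 52.1% and 48.1% of the bound signal of members, against 22.7% and 19.7% for the others. These lysates also chose the members, so the gap is a description. *RED1*, which builds the axes of meiotic chromosomes, had 70.1% and 69.3% in this pool, a gene picked out after its values were seen, and *CCW12* 32% and 28.6%. At 46°C the member medians were 25.9% and 16.7%, near the 22% and 14.6% of the others.

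**Figure D1:**
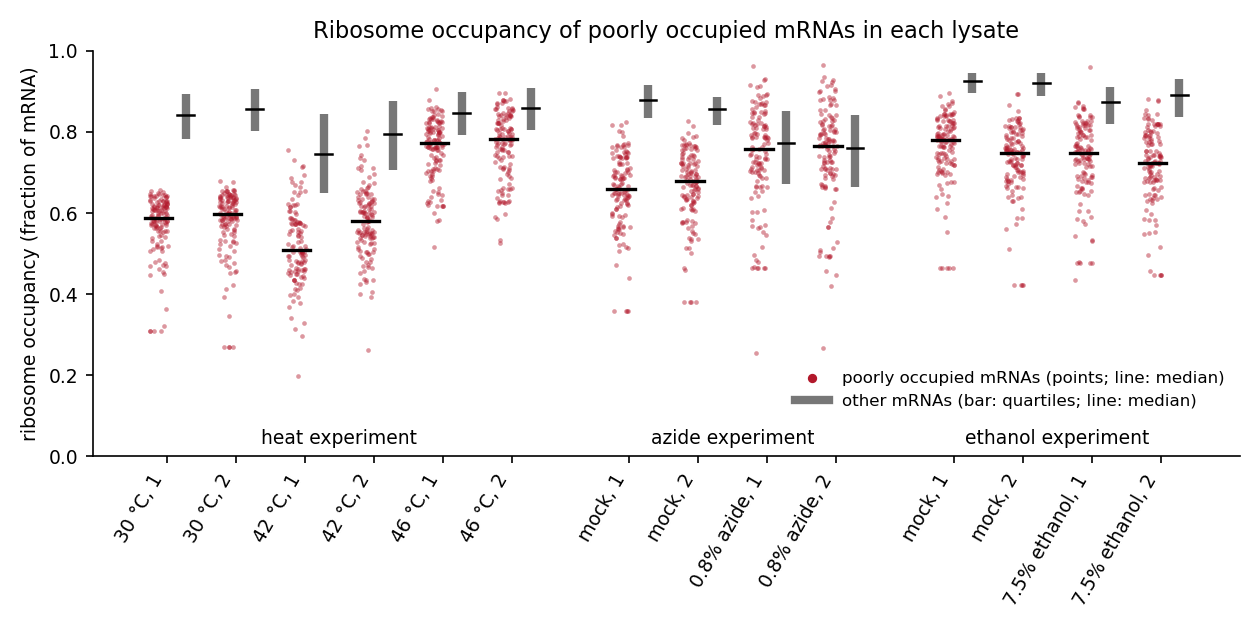
Ribosome occupancy (fraction of mRNA) in each of 14 Polysome-seq lysates. Points are the poorly occupied mRNAs with a line at their median, and grey bars the quartiles of the other mRNAs with a line at the median. Member medians lie under 0.6 in the 30°C lysates that chose them, at 0.660 to 0.779 in the mock lysates and at 0.757 and 0.765 in 0.8% azide.

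In unstressed cells most of these mRNAs sedimented more than mRNAs of like length. Sedimentation is given as the natural log-odds of pSup minus the running median of transcripts of similar length (relative supernatant log-odds), where values below 0 mean more sedimentation. It could be computed in all 9 unstressed experiments for all but 23 of the 129 members, since 22 have no deposited transcript length and 1 did not pass the minimum of 20 counts. With limma over 9 experiment means, 83 of these members sedimented more, where 34.2% of 4893 mRNAs did, and 7 sedimented less, where 38.3% did. The median member stood at −0.35 ln units and the median mRNA at 0.01. Member medians by experiment ran from −0.51 to −0.24, and at least 76 members were below 0 in every experiment. In pSup itself, the 30°C lysates of the heat experiment had member medians of 0.799 and 0.809 against 0.885 and 0.881 for the others. Abundance moved with this measure (Spearman's rho 0.44 over 4568 mRNAs, −0.12 over the members), and its part in the result was not tested.

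The 5 members that sedimented most lay far below the member median. *MDJ2*, a mitochondrial Hsp40 chaperone, had pSup between 0.457 and 0.723 over 18 unstressed lysates (median 0.628) and a relative value of −1.89 ± 0.07 (SE, 9 experiments, adjusted p = 1.33e-09). *PET122*, an activator of *COX3* translation in mitochondria, had pSup of 0.426 to 0.751 (median 0.670) and a relative value of −1.59 ± 0.07 (adjusted p = 7.85e-09). *NDJ1*, which tethers telomeres in meiosis, stood at −1.34, *SAE2*, which acts in the resection of broken DNA ends, at −1.32, and *FMT1*, the mitochondrial formyltransferase of initiator tRNA, at −1.24. Each of these 5 was below 0 in all 9 experiments.

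The 7 members that sedimented less lay closer to 0. *ACS1*, acetyl-CoA synthetase, had pSup of 0.810 to 0.945 (median 0.909) and a relative value of 0.77 ± 0.07 (SE, adjusted p = 4.73e-07). *FOX2*, an enzyme of peroxisomal β-oxidation, stood at 0.49, *CCW12* at 0.37, *BDF2*, a bromodomain protein, at 0.31 and *YAT1*, a carnitine acetyltransferase, at 0.25. *STE5*, the scaffold of the pheromone kinases, and *ADH4*, an alcohol dehydrogenase, completed them at 0.17 and 0.14. *ACS1*, *FOX2* and *CCW12* were above 0 in all 9 experiments, whereas *BDF2* was below 0 in 2 and *YAT1* in 1. By list, 17 of 26 mitochondrial members sedimented more and 3 less, 19 of 23 nuclear members more and 2 less, 4 of 7 meiotic members more and 0 less, and 5 of 5 transcription regulators more. The mating and cell cycle list had 0 of 3 more and 2 less. As a base, 78.3% of all members tested sedimented more and 6.60% less. Of all 4893 mRNAs tested, 1673 sedimented more and 1873 less.

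Occupancy among the members did not order their sedimentation. Spearman's rho between occupancy at 30°C and the unstressed relative value was 0.05 over the members and 0.61 over all 4568 mRNAs with both values. Members cover a narrow range of occupancy by choice.

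**Figure D2:**
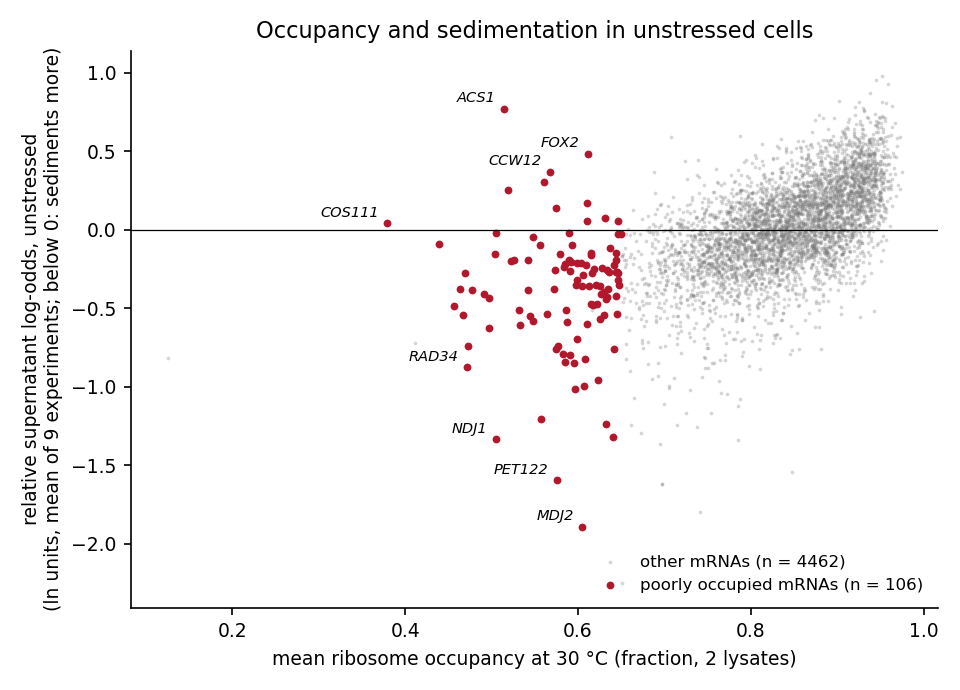
Mean ribosome occupancy at 30°C (x, fraction) against the relative supernatant log-odds in unstressed cells (y, ln units, mean of 9 experiments). Red points are the poorly occupied mRNAs with both values, of which 95 lie below 0, and grey points are other mRNAs.

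Heat lowered pSup of these mRNAs along with the others. The 42°C lysates had member medians of 0.430 and 0.441 against 0.579 and 0.571 for the others, and the 46°C lysates 0.130 and 0.146 against 0.201 and 0.217, all under the 30°C medians given above. Member and other medians kept their order in every lysate. Relative to mRNAs of like length, 0 members rose and 1 fell at 42°C (background 0.681% and 0.321%), and 6 rose and 6 fell at 46°C (4.65% and 5.01%). Without 1 lysate 0 to 18 members were called at 42°C, and at 46°C this number lay between 0 and 30. At 46°C *PET122* went from pSup 0.647 and 0.679 to 0.155 and 0.165, a smaller fall than that of like-length mRNAs (1.11 ln units, adjusted p = 0.031), and *YRF1-4* also rose in relative terms (0.85). *ADH4* went from 0.898 and 0.897 to 0.135 and 0.151 (−0.67, adjusted p = 0.026), and *BDF2* fell by 0.61 in relative terms. *ADY4*, of the meiotic spindle pole body, was the 1 call at 42°C, from 0.885 and 0.876 to 0.424 and 0.427 (−0.62, adjusted p = 0.049).

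Occupancy in heat is described without a test, since the control lysates chose the members. At 42°C the median was 0.509 and 0.581 for members and 0.746 and 0.794 for others. At 46°C it was 0.772 and 0.782 for members and 0.846 and 0.859 for others, so the gap was narrower than at 30°C. The paper states that condensed RNA may pellet in the gradient under stress, which makes absolute occupancy hard to calculate. In unstressed cells it also found an initiation-blocked reporter mRNA in heavy gradient fractions with EDTA present. Signal in bound pools may thus include condensed mRNA, in unstressed lysates as well as under stress. The part of condensed mRNA in the occupancy values was not tested. Both 46°C lysates lay above both 30°C lysates for 121 of 129 members and below for 3 (46.1% and 32.4% of all mRNAs), and nothing is read from this count. At 42°C both lay above for 28 of 120 members and below for 54 (5.84% and 72.3%).

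*YER186C* went from 0.322 and 0.347 to 0.763 and 0.742 at 46°C, *RED1* from 0.471 and 0.456 to 0.852 and 0.837, and *RAD34* from 0.477 and 0.466 to 0.805 and 0.808. These were the 3 largest gains. Their lysates did not overlap between temperatures, but low values in the same 30°C lysates chose the members, so nothing is read from this. *PHD1*, an activator of filamentous growth, had 0.612 and 0.618 at 30°C and 0.599 and 0.533 at 46°C, *MCO6* had 0.631 and 0.643 and then 0.621 and 0.586, and the values of *LPX1*, a peroxisomal lipase, overlapped. At 42°C the largest gains were in *ASP3-4* (0.308 and 0.270 to 0.503 and 0.553), *FAT3*, a fatty acid uptake gene (0.448 and 0.492 to 0.616 and 0.689), and *YLR177W*, an uncharacterized gene (0.586 and 0.581 to 0.756 and 0.764). *CCW12* had the largest loss, from 0.555 and 0.580 to 0.198 and 0.262, followed by *PHD1* (to 0.330 and 0.394) and *YDL211C* (0.609 and 0.658 to 0.377 and 0.434). *CCW12* read 0.730 and 0.696 at 46°C, above both other temperatures.

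In 0.8% azide the members no longer ranked low. The median member went from 0.660 and 0.679 in mock to 0.757 and 0.765, while the median of the others went from 0.879 and 0.855 to 0.772 and 0.759. Of 129 members, 69 and 60 then lay below the others' median. Both azide lysates lay above both mocks for 97 members and below for 17, against 19.6% and 70.3% of all mRNAs. mRNA that pellets through the gradient under stress is in neither pool, so ribosome association, the change of ribosome-bound relative to Total counts, was tested as well with edgeR. It rose for 31 of 129 members and fell for 1 (background 8.49% and 7.67%), with a member median of 0.23 log2 units against 0.03 for all mRNAs. The 31 include the 4 *ASP3* copies. This fit had no term for the lysate that Total and ribosome-bound libraries share, and its bound pool may include condensed mRNA. Without 1 replicate 11 to 22 members were called. Tested against the free pool instead, 120 members rose and 1 fell (43.8% and 29.1%).

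The largest rises in ribosome association in azide were in *THI22*, of a thiamine gene family (occupancy 0.546 and 0.464 to 0.665 and 0.710, association 0.90 ± 0.22 SE log2 units, adjusted p = 0.012), and *ASP3-4* (0.360 and 0.380 to 0.464 and 0.495, 0.79 ± 0.10, adjusted p = 0.000115). Azide and mock lysates did not overlap in either gene. *RED1* (0.566 and 0.584 to 0.873 and 0.830, 0.57), *RAD34* (0.601 and 0.619 to 0.816 and 0.807, 0.36) and the telomerase gene *EST2* (0.621 and 0.630 to 0.810 and 0.815, 0.66) also rose, and these 3 were picked out after their values were seen. *CCW12* was the 1 member that fell, from 0.692 and 0.679 to 0.254 and 0.268 (−0.61 ± 0.07, adjusted p = 7.81e-05). Of 7 meiotic members 2 rose, of 29 mitochondrial members 5 and of 24 nuclear members 8.

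In 7.5% ethanol the members stayed below the others. The median member had 0.779 and 0.749 in mock and 0.748 and 0.723 in ethanol, and the others 0.925 and 0.920 and then 0.873 and 0.892. In ribosome association 0 of 129 members rose and 3 fell (background 0.159% and 1.75%): *CCW12*, *MTO1* and *YRF1-4*. *CCW12* went from 0.887 and 0.893 to 0.48 and 0.498 in occupancy (association −1.23 ± 0.13 SE log2 units, adjusted p = 0.00216), and *YRF1-4* from 0.817 and 0.777 to 0.713 and 0.639 (−0.58). *MTO1*, which modifies mitochondrial tRNA and is named here only because it completes the 3, fell by 0.65 while its occupancy values, 0.815 and 0.785 in mock and 0.800 and 0.831 in ethanol, overlapped. Without 1 replicate 0 to 1 members were called, and with Total and bound libraries of a lysate sharing a term 7 rose and 5 fell. Against the free pool 63 rose and 3 fell (23.8% and 18.9%).

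All but 22 of the 129 members could be tested for this in the comparisons at 30°C that follow. In 0.5% azide 42 members rose, that is sedimented less than before relative to like-length mRNAs, and 1 fell (background 11.2% and 14.6%), with a median of 0.34. With any 1 of the 4 lysates left out, 0 members passed, and the median stayed at 0.32 to 0.35. In 0.8% azide 27 rose and 0 fell (5.38% and 6.07%), with a median of 0.36, and 7 to 36 were called without 1 lysate. *RAD34* had pSup of 0.469 and 0.561 in mock and 0.672 and 0.695 in 0.5% azide (1.09 ± 0.13 SE ln units, adjusted p = 0.014), with no overlap. In 0.8% azide it had 0.521 and 0.374 in mock and 0.574 and 0.471, where pSup overlapped but the relative value rose by 0.99 (adjusted p = 0.039). *SLD7*, of replication initiation, rose by 0.90 in 0.5% azide (0.627 and 0.642 to 0.758 and 0.725), and *RIM9*, of pH signalling and sporulation, by 0.88 in 0.8% azide. *PEX2*, of peroxisomal import, fell by 0.74 in 0.5% azide, from 0.846 and 0.839 to 0.614 and 0.601. In 0.5% and 0.8% azide 6 and 4 of 7 meiotic members rose.

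Ethanol gave the other direction at its highest dose. At 15% the member median of pSup went from 0.839 and 0.819 to 0.185 and 0.164, and that of the others from 0.915 and 0.898 to 0.377 and 0.365. In relative terms 3 members rose and 35 fell (background 21.3% and 19.5%), with a median of −0.27 and 93 members below 0. The count without 1 lysate was 14 to 40. *FLR1*, a multidrug transporter gene, went from 0.875 and 0.862 to 0.142 and 0.122 (−0.95 ± 0.10 SE, adjusted p = 0.00265), and *ERI1* from 0.965 and 0.952 to 0.379 and 0.291 (−0.93). *VTH1*, a putative sorting receptor gene, rose by 0.73 and *DUR3*, the urea and polyamine transporter gene, by 0.48, although pSup of *DUR3* went from 0.814 and 0.810 to 0.261 and 0.319. At 10% 1 rose and 8 fell (5.19% and 6.38%, 0 to 10 called without 1 lysate). At 7.5% 11 rose and 28 fell (23.9% and 20.1%, 14 to 37 called), and at 5% 0 were called in either direction (0.118% and 0.395%), with 16 at an unadjusted p under 0.05. No share of all mRNAs is given at that unadjusted threshold, so nothing is read from the 16. The doses came from 3 experiments with their own mocks, and 5% and 10% share theirs.

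The named changes at 7.5% ethanol were large. *MTO1* went from pSup 0.773 and 0.807 to 0.312 and 0.228 (−1.66 ± 0.12 SE ln units, adjusted p = 0.00183), and *MDJ2* from 0.586 and 0.714 to 0.365 and 0.360 (−0.98). The mock and ethanol lysates of both were apart. *FOX2* kept 0.852 and 0.852 in mock and 0.851 and 0.828 in ethanol, a relative rise of 0.80, and *STE5* rose by 0.58. At 10% *ERF2*, of a palmitoyltransferase, fell by 0.74 and *YIA6*, a mitochondrial NAD carrier gene, by 0.71, whereas *CCW12* rose by 0.37.

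DTT and cycloheximide moved few members past the threshold in sedimentation. DTT gave 0 calls among members and among all mRNAs (background 0% in both directions), with 16 members at an unadjusted p under 0.05 by limma. Cycloheximide at 30°C likewise gave 0 (0% and 0%), with 11 members at an unadjusted p under 0.05, a member median of 0.20 and 85 members above 0. At 46°C 1 member rose and 0 fell (0.283% and 2.91%), with a median of 0.18. This was *BDS1*, a sulfatase gene, with pSup of 0.0541 and 0.0576 in mock and 0.224 and 0.295 with cycloheximide. The single 42°C lysates had medians of pSup of 0.228 for members and 0.368 for others in mock, and 0.491 and 0.568 with cycloheximide, and were not tested. The effects at both temperatures were compared by an interaction term, which called 0 members and 0 of all mRNAs by limma, with 6 members at an unadjusted p under 0.05. For the unadjusted counts in this paragraph no share of all mRNAs is given, so nothing is read from them.

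The gap in sedimentation between poorly occupied and other mRNAs was narrower in eIF3b-depleted than in mock lysates. In mock lysates at 30°C the medians of pSup were 0.663 and 0.615 for members and 0.819 and 0.779 for others, and in depleted lysates 0.558 and 0.502 against 0.636 and 0.563. Both sets sedimented more after depletion, and the gap went from 0.16 in both mocks to 0.08 and 0.06. In relative terms 65 members rose and 1 fell (background 18.1% and 21.1%), with a median of 0.42 and 97 members above 0. Without 1 replicate 39 to 50 were called. *SLM3*, a mitochondrial tRNA thiolation gene, had pSup of 0.662 and 0.541 in mock and 0.625 and 0.608 after depletion (1.08 ± 0.14 SE ln units, adjusted p = 0.000539), and *BSC5* had 0.519 and 0.383 and then 0.519 and 0.477 (1.05). Both sets of pSup overlapped while like-length mRNAs moved to the pellet. *YAT1* was the 1 member that fell, from 0.723 and 0.719 to 0.447 and 0.381 (−0.44). All 7 meiotic members rose, by 0.35 (*HFM1*) to 0.95 (*IME2*), as did 18 of 26 mitochondrial, 15 of 23 nuclear, 1 of 5 transcription regulator and 0 of 3 mating and cell cycle members.

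The same order held in heat in this strain. At 46°C medians were 0.143 and 0.121 for members against 0.293 and 0.237 for others in mock, and 0.0556 and 0.0635 against 0.0667 and 0.0727 after depletion. At 42°C mock members stood at 0.294 and 0.313 against 0.503 and 0.499, and depleted ones at 0.189 and 0.250 against 0.225 and 0.281. Members were below the others in each of these 8 lysates, which were not tested.

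Depletion of eIF4E called fewer members. Medians at 30°C were 0.600 and 0.636 for members and 0.761 and 0.782 for others in mock, and 0.571 and 0.593 against 0.703 and 0.711 after depletion. In relative terms 7 members rose and 0 fell (background 2.43% and 5.91%), with a median of 0.14, and 0 to 2 were called without 1 replicate. *VTH1* rose by 0.69 (pSup 0.273 and 0.321 to 0.384 and 0.381) and the siderophore transporter gene *ARN2* by 0.41 (0.575 and 0.646 to 0.638 and 0.631). *VTH1* has a close paralog, so its reads are uncertain. The difference between the 2 depletions was not tested, as they are different strains. In the 7 reporter strains, unstressed and without replicates, member medians of pSup were 0.70 to 0.739, the highest in the *GCN4* leader strain, and other medians 0.848 to 0.871.

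**Figure D3:**
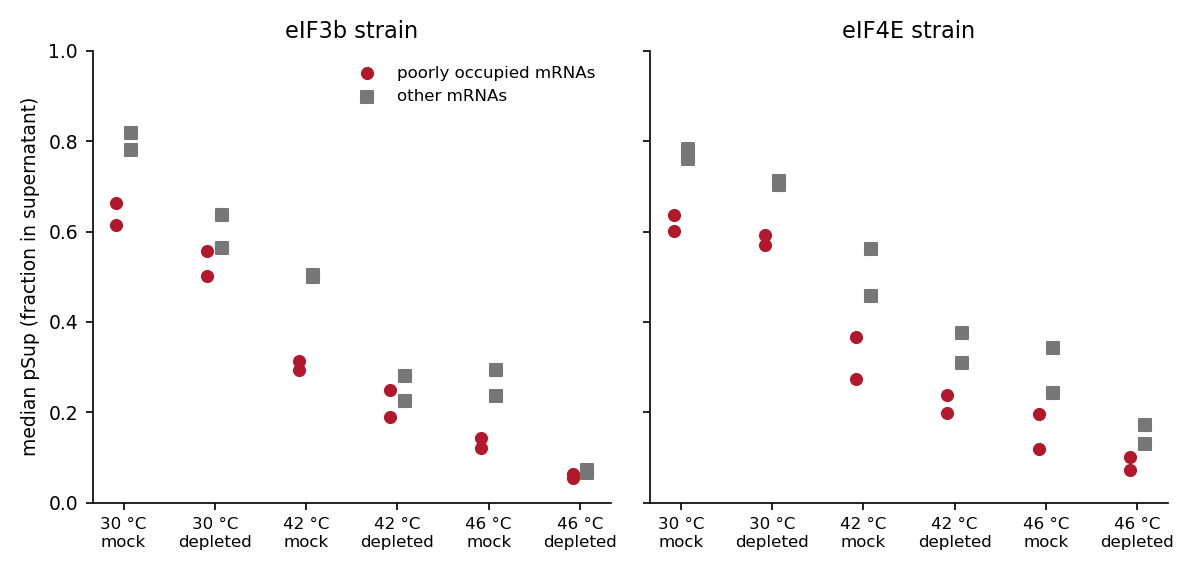
Median pSup (fraction in supernatant) of poorly occupied mRNAs (red circles) and other mRNAs (grey squares) in each lysate of the eIF3b and eIF4E strains at 3 temperatures. At 30°C the gap in the eIF3b strain is 0.16 in both mock lysates and 0.08 and 0.06 after depletion.

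Total abundance of these mRNAs rose more often than it fell in lysates depleted of either initiation factor, against mock. Values are CPM scaled by the trimmed mean of M-values (TMM), tested with edgeR on the counts, and changes are in log2 units. After eIF3b depletion 99 of 129 members rose and 20 fell (background 41.8% and 38.7%), with a median of 0.85. After eIF4E depletion 80 rose and 12 fell (30.7% and 29.2%), with a median of 0.41. With total counts as the only scaling the median of all mRNAs lay at 0.92 and 0.33, and 4 members fell (16.6%) and 119 changed in either direction (87.6%) after eIF3b depletion, while 79.1% of members rose (54.2%) and 2 fell (14.2%) after eIF4E depletion. The counts are relative, so a rise of one mRNA and a loss of the others cannot be told apart. Members were scarcer than the others at 30°C (median 12.2 against 32.6 TPM). The part of this in the abundance counts, here and in the treatments below, was not tested.

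The largest rises after eIF3b depletion were in *YAT1* and *DUR3*. *YAT1* went from 10.58 and 15.03 to 259 and 284.9 CPM (4.41 ± 0.12 SE, adjusted p = 3.24e-11) and *DUR3* from 11.15 and 11.5 to 194.7 and 189.9 CPM (4.08 ± 0.09, adjusted p = 8.17e-12). In both genes depleted lysates lay more than 10-fold above mock. Of the other members that rose, 6 genes of nitrogen and carbon use were picked out after their values were seen, and no list of such genes was counted. The allantoate permease gene *DAL5* rose by 1.66 and the malate synthase gene *DAL7* by 2.46. *ICL1* (isocitrate lyase) rose by 1.72, *FOX2* by 1.27, *GUT1* (glycerol kinase) by 1.2 and *ACS1* by 0.73. *WSC4*, a cell-wall and secretion gene, fell from 64.33 and 74.29 to 8.938 and 9.861 CPM (−2.89 ± 0.14, adjusted p = 2.35e-09), and *NDJ1* from 44.89 and 34.49 to 6.354 and 7.889 CPM (−2.51). After eIF4E depletion *PMA2*, a plasma membrane proton pump gene, rose by 1.90 and *DUR3* by 1.74, while *NDJ1* fell by 0.64 and *PHD1* by 0.57. By total counts alone *NDJ1* (−0.34) did not pass. By list after eIF3b depletion, 23 of 29 mitochondrial members rose and 3 fell, and 13 of 24 nuclear members rose and 8 fell. Of members of unknown process 22 of 27 rose and 4 fell, and of meiotic members 6 of 7 rose and 1 fell. Of transcription regulators 3 of 5 rose and 2 fell, and of mating and cell cycle members 1 of 3 rose and 1 fell. Both members of the partial transport list and the 1 of the partial repair list rose. The shares over all mRNAs, 41.8% up and 38.7% down, are the base for these counts.

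Cycloheximide also raised more members than it lowered. At 30°C 72 of 129 rose and 11 fell (background 30.8% and 28.8%), with a median of 0.52, and at 46°C 70 rose and 13 fell (28.3% and 27.5%). By total counts alone the median of all mRNAs lay at 0.59 and 0.63, and at 30°C 81.4% of members rose (64.2%) and 1 fell (9.19%). *YAT1* went from 12.21 and 10.19 to 57.8 and 66.12 CPM at 30°C (2.44, adjusted p = 7.39e-05), and *IRC10*, of unknown function, from 10.36 and 9.72 to 37.77 and 42.29 CPM (1.99). At 46°C *ENB1*, an enterobactin transporter gene, rose by 1.85 and the meiotic kinase gene *IME2* by 1.64. *CCW12* fell by 0.95 at 30°C, from 11590 and 10940 to 6124 and 5536 CPM, and by 0.98 at 46°C. *YLR177W* fell by 0.73 at 30°C and *HMS2*, related to heat shock factor, by 0.74 at 46°C. By total counts alone *YLR177W* (−0.20) and *HMS2* (−0.17) did not pass the threshold. Of meiotic members 6 of 7 rose at 30°C.

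Azide raised more members than it lowered. At 0.5% 75 of 129 rose and 15 fell (background 36.8% and 34.5%), and by total counts alone, where the median of all mRNAs lay at 0.42, 80.6% of members rose (58.9%) and 7 fell (17.8%). At 0.8% 43 rose and 15 fell (21.3% and 19.1%). The experiments had separate mocks and their difference was not tested. *PHD1* went from 100.3 and 105.4 to 906.3 and 874.2 CPM in 0.5% azide (3.11 ± 0.07 SE, adjusted p = 4.33e-10), and *YLR177W* from 38.98 and 44.59 to 309.6 and 234.4 CPM (2.7). Both treated groups were far above mock. *MTO1* fell by 1.51 and *VTH1* by 0.99. In 0.8% azide *EDS1*, a putative zinc cluster regulator, went from 1.387 and 1.832 to 19.71 and 25.58 CPM (3.78), *YLR177W* rose by 1.93, *YIA6* fell by 1.2 and *RAD34* by 0.92.

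In ethanol the balance of rises and falls was not the same at every dose, and differences between doses were not tested. At 5% 59 of 129 rose (background 33.8%) and 20 fell, 79 in either direction (72.8%). At 7.5% 45 rose and 35 fell (29.2% and 29.4%), at 10% 11 rose and 64 fell (26.9% and 26.7%), and at 15% 15 rose and 16 fell (13.1% and 10.1%). At 7.5%, by total counts alone, 25 rose and 67 fell (14.5% and 52.2%), with the median of all mRNAs at −0.28. The balance at 7.5% therefore turned with the scaling. By the same scaling 46 rose and 26 fell at 5% (27.4% and 45.2%), 5 rose and 93 fell at 10% (15.8% and 43.3%), and 13 rose and 28 fell at 15% (9.17% and 19.2%). *IRC10* rose at 5% (2.25), 7.5% (3.77) and 10% (1.28), and at 7.5% it went from 7.066 and 7.275 to 104.2 and 91.77 CPM. *PHD1* rose by 2.40 at 5%, *BSC5* by 2.59 at 7.5% (9.107 and 9.011 to 55.01 and 54.18 CPM), and the osmosensing kinase gene *SSK22* by 1.13 at 10%. *MTO1* fell by 1.86 and *YJL118W* by 1.55 at 5%, *EST2* by 1.23 and the drug transporter gene *PDR15* by 0.94 at 7.5%, and the glycogenin gene *GLG1* by 1.73 and *ENB1* by 1.41 at 10%. At 15% *ENB1* fell by 1.64 and *ARN2* by 0.97, while *BSC2* rose by 0.78 and *YDR124W* by 0.85.

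With DTT 44 of 129 members rose and 17 fell (background 24.9% and 26.7%), and 74 rose and 6 fell by total counts alone (43.8% and 17.6%). *ARN2* went from 21.74 and 22.74 to 158.1 and 138.6 CPM (2.74 ± 0.09 SE, adjusted p = 2.91e-09) and *ENB1* from 26.84 and 24.45 to 150.8 and 126.2 CPM (2.43 ± 0.10, adjusted p = 1.78e-08). The mitochondrial iron carrier gene *MRS4* rose by 1.66 and the ferric reductase genes *FRE3* and *FRE2* by 0.90 and 0.39. These 5 genes were grouped after their values were seen. *WSC4* fell by 0.84 and *ADH4* by 0.69.

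Heat changed the abundance of few members within 10 min. At 42°C 8 of 126 rose and 1 fell (background 5.98% and 1.25%). By total counts alone 7 rose and 3 fell at 42°C (5.06% and 8.0%), and without 1 lysate 3 to 4 members were called. At 46°C 1 rose and 0 fell (0.404% and 0.0367%). *IRC10* went from 8.243 and 8.431 to 20.82 and 23.19 CPM at 42°C (1.40, adjusted p = 5.38e-05) and *YLR177W* from 29.48 and 33.79 to 66.26 and 65.56 CPM (1.06). *AAD14*, an aryl alcohol dehydrogenase gene, fell by 0.57. The 1 call at 46°C, *YML133C* (28.82 and 33.52 to 47.33 and 64.88 CPM), is a Y′ gene with shared reads.

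**Figure D4:**
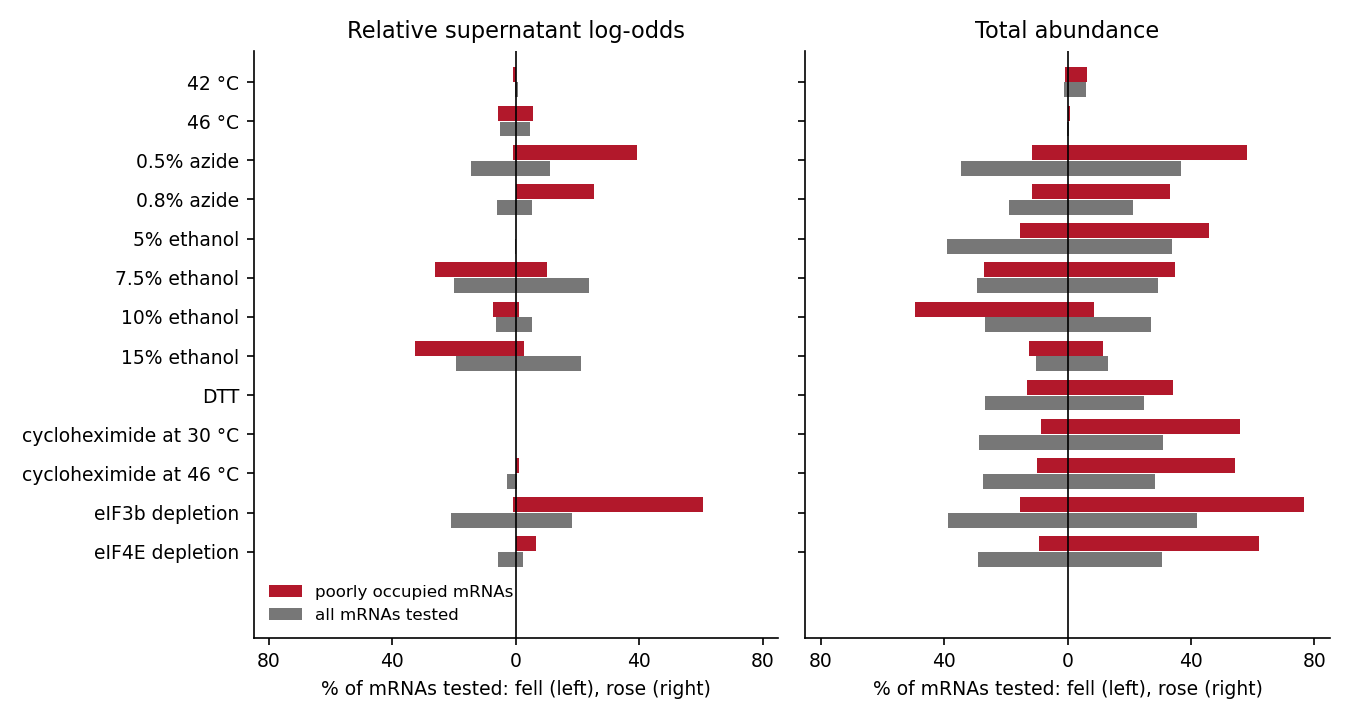
Share of mRNAs (% of those tested) called at an adjusted p under 0.05 in each of 13 comparisons, falling to the left and rising to the right, for relative supernatant log-odds (left panel) and Total abundance (right panel). Red bars are poorly occupied mRNAs, grey bars all mRNAs tested. After eIF3b depletion 65 members rose in relative supernatant log-odds and 99 of 129 in abundance.

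**Figure D5:**
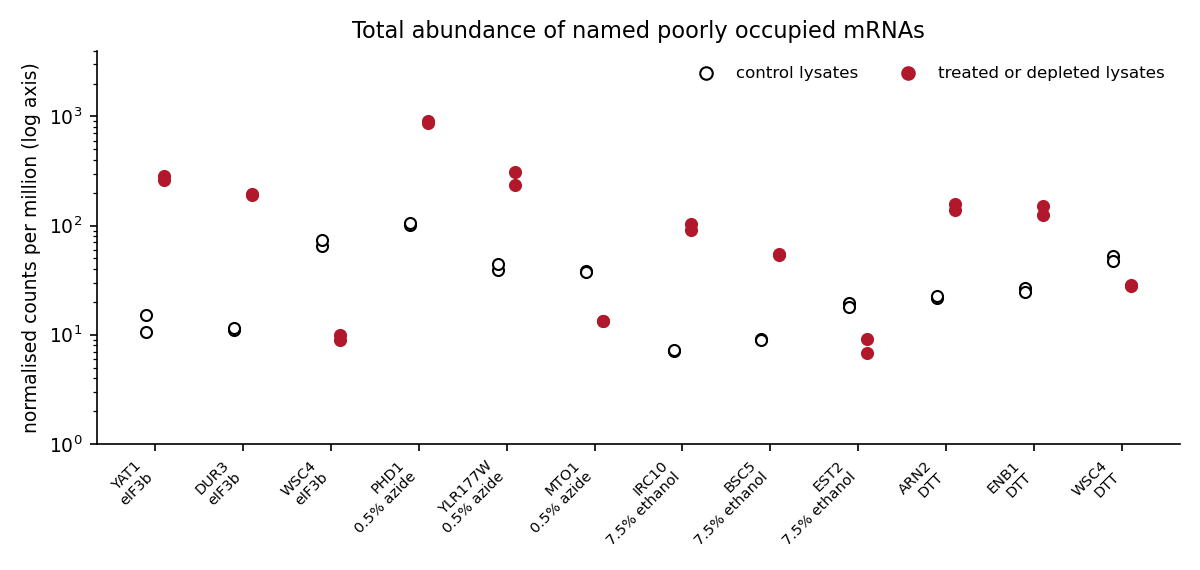
Total abundance (TMM-scaled CPM, log axis) of named poorly occupied mRNAs in control lysates (open circles) and treated or depleted lysates (red circles), 2 each. *YAT1* after eIF3b depletion lies at 259 and 284.9 CPM against 10.58 and 15.03 in mock.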

How the data were processed

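Per the labels and the paper's methods, the authors trimmed reads with Trim Galore 0.6.10, handled molecular identifiers with UMI-tools 1.1.4 and pseudoaligned them with kallisto 0.48.0 with strand. SAMtools 1.16.1 and STAR 2.7.10b are also in the submitters' processing notes. The deposited tables hold estimated counts and TPM per open reading frame, pSup as a fraction, spike-in-scaled signal for Polysome-seq pools, and occupancy as a ratio of bound to all signal. Transcripts were quantified without UTRs in TPM, so short reading frames read high.

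Occupancy was recomputed from the signals (largest difference 3.33e-16). Azide and ethanol Polysome-seq have 1 bound pool, heat has 2. Abundance (Total libraries) and ribosome association were tested on rounded counts with edgeR 4.0.16 (TMM, quasi-likelihood, genes kept by filterByExpr). Occupancy and sedimentation were tested with limma 3.58.1 on natural log-odds with a pseudocount of 0.5, the latter centred by a running median over 0.02 of the log length range. P-values were two-sided, Benjamini-Hochberg adjusted over all mRNAs tested, with a threshold of 0.05. The replicates are described as biological, starting from growth, and replicate libraries differed by more than counting noise in all 126 pairs checked. Intervals from counts are not given. For treatments, all lysates of an experiment, at every temperature, were in 1 fit with 1 shared estimate of the spread. The groups compared held 2 lysates each. Scripts were tested on simulated data. R was 4.3.3.

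The members and lists were chosen with earlier results of these data known. Named were the 6 lowest members, 3 on each side of the threshold, the 5 with the most and the least unstressed sedimentation, the 5 most abundant, up to 2 rises and falls per test that did not overlap between lysates (for sedimentation in length-centred values, where pSup itself may overlap; for ribosome association in occupancy), and the 3 largest gains and losses of occupancy in heat. Genes outside this rule are said to be so. Total counts as the only scaling, and a term for each lysate in ribosome association, were added after seeing the data. No sequences are shown, as none were used here.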

Additional observations from a re-analysis of the deposited data

Results flagged for a closer look

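Of 20 sets of 9 experiment means tested for a value far from the rest, 2 stood apart, and chance alone would mark about 1 in 20. Both lie in the mock lysates of the 0.5% azide experiment. The member median of relative supernatant log-odds was −0.51 there and between −0.37 and −0.24 in the other experiments. *MDJ2* was at −2.30 there and between −1.99 and −1.69 elsewhere. The change of the members in 0.5% azide is measured against these same mocks, and the part of the mocks in it was not tested. In the 0.8% azide experiment, with other mocks, the member median was −0.36 before treatment and its change was 0.36.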

How the results depend on the processing

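Every member tested stayed lower in occupancy in the mock lysates under each alternative run, and the unstressed sedimentation calls ranged from 81 to 96 without 1 replicate or lysate. Thresholds of 0.60 and 0.70 would give 70 and 298 members. Counts of called members without 1 replicate ranged, for sedimentation, from 0 to 18 (42°C), 0 to 30 (46°C), 0 to 0 (0.5% azide), 7 to 36 (0.8% azide), 0 to 10 (10% ethanol), 14 to 37 (7.5%), 14 to 40 (15%), 0 to 1 (cycloheximide, 46°C), 39 to 50 (eIF3b) and 0 to 2 (eIF4E), for abundance from 3 to 4 (42°C), 0 to 3 (46°C), 33 to 57 (0.8% azide) and 21 to 32 (15% ethanol), and for ribosome association from 11 to 22 (azide) and 0 to 1 (ethanol). The lone replicate is then taken to vary like the other group. DESeq2 called 2 members in abundance at 46°C, 15 in 15% ethanol and 32 with DTT. A minimum of 100 counts gave 2 sedimentation calls at 42°C, 2 with cycloheximide at 46°C and 12 after eIF4E depletion. Ribosome-bound against Free gave 121 calls in azide and 66 in ethanol. The replicate numbers are shared between groups, but the labels do not say that a number marks a shared batch, and 2 numbers cannot decide it (correlations of same-numbered deviations ran from −0.15 to 0.80). With a replicate block the abundance calls at 46°C became 2 and the sedimentation calls 0 at 42°C, 4 at 46°C, 59 in 0.8% azide, 2 in 10% ethanol and 2 with cycloheximide at 46°C. A block of the lysate gave 12 calls of ribosome association in ethanol. Of 676 values of named genes under alternatives, 82 were no longer past the threshold and 0 reversed. The causes were not tested. Treatment groups tested held 2 lysates each, and the spread behind a p-value was shared over all lysates of an experiment. The test of unstressed sedimentation used 9 experiment means, and that of occupancy 4 mock lysates. A member that missed the threshold is not shown to be unchanged.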
